A study of Drosophila melanogaster with 8 samples.

Results

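Chitin synthesis, binding and remodelling was followed through 38 genes of the deposited expression table, out of 13918 genes listed. They were taken by name: the chitin synthase genes kkv and CS-2, the synthesis and organisation genes mmy, knk and rtv, the chitinase genes (Cht), the chitinase-like growth factor genes (Idgf), the chitin deacetylase genes (Cda, serp, verm and ChLD3), and the chitin-binding genes of the obstructor and peritrophin families (obst, Gasp and Peritrophin). The samples were whole pupae of Drosophila melanogaster, wild-type strain Canton-S, at the early pupal stage P6, kept at 25 °C. One group had been held at 3 g, that is, in hypergravity, during its development. The other was the control at 1 g. There were 4 libraries per group, made from polyadenylated RNA of 4 whole pupae pooled, so every value sums over all tissues and over 4 animals. The labels used here give no sex.

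Chitin is a polymer of N-acetylglucosamine that stiffens the cuticle of the epidermis and the lining of the tracheae, and that also lies in the peritrophic matrix of the gut. Membrane-bound synthases extrude it from UDP-N-acetylglucosamine, secreted deacetylases and chitin-binding proteins order the fibres, and chitinases digest them when an old cuticle is shed. Metamorphosis includes such changes of cuticle, with enzymes for making and for digesting chitin present in the same animal.

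Levels are given in transcripts per 1000000 (TPM), a unit corrected for gene length, so that levels of different genes can be set side by side. A change is given as the difference, 3 g minus control, of the mean log2(TPM + 0.5), a scale that understates the change of low genes, with its standard error (SE). It was tested with limma over the 12044 genes that averaged 1 TPM or more, with adjusted p under 0.05 as the threshold. Depth is unknown, since TPM keeps no record of it. Whether the pools of a group were raised separately is not in the labels, and the p-values therefore reflect only how much these pools varied, which may be technical. In RNA from whole pupae, fewer cells of a kind and less RNA per cell cannot be told apart.

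The libraries were unequal. Their mean correlation with the others of their group was 0.881 to 0.922 at 3 g and 0.922 to 0.961 in controls, lowest for pool 2 at 3 g and for control pool 4. Genes of the salivary gland before the pupal stage (Sgs and Eig71E) summed to 13330 to 32280 TPM in 3 g pools. In control pools they summed to 86.8 to 456 TPM. Of the 13 tested, 13 passed the threshold as higher, where 2.23% of all tested genes did. Muscle genes summed to 934.5 to 1574 TPM in 3 g pools and 2893 to 10650 TPM in control pools. Control pool 4 was the highest, and 7 of 8 genes passed as lower, where 2.06% of all tested genes did. Whether these differences have a part in the results on chitin genes was not tested.

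Of the 38 chitin genes, 34 were tested, and 4 of them (11.8%) passed the threshold, where 4.28% of all tested genes did. The chitinase gene Cht4 and the chitin-binding gene obst-A rose at 3 g, and the deacetylase gene Cda5 and the chitin-binding gene Peritrophin-A fell. By direction, 2.23% of all tested genes were called higher and 2.06% lower. The 3 g pools lay wholly above the control pools for 5 chitin genes, which were Cht4, obst-A, Idgf4, Idgf1 and serp, and wholly below them for 2, Cda5 and Peritrophin-A. Together these are 20.6% of the 34, where the groups did not overlap for 12.5% of all tested genes (6.49% wholly above and 6.00% wholly below). Before adjustment p was under 0.05 for 10 higher genes, where 8.58% of all tested genes were so called, and for 3 lower genes, where 7.68% were. The median change of the 34 was 0.21, beside -0.02 over all tested genes, with 20 above 0 and 14 below. The 4 genes not tested were obst-F, obst-G, obst-H and Cda9, none of which exceeded 0.85 TPM in any pool. Of these, obst-G, whose values equal those of CG2962, was listed at 0 in all pools except control pool 4, at 0.13 TPM.

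**Figure D1:**
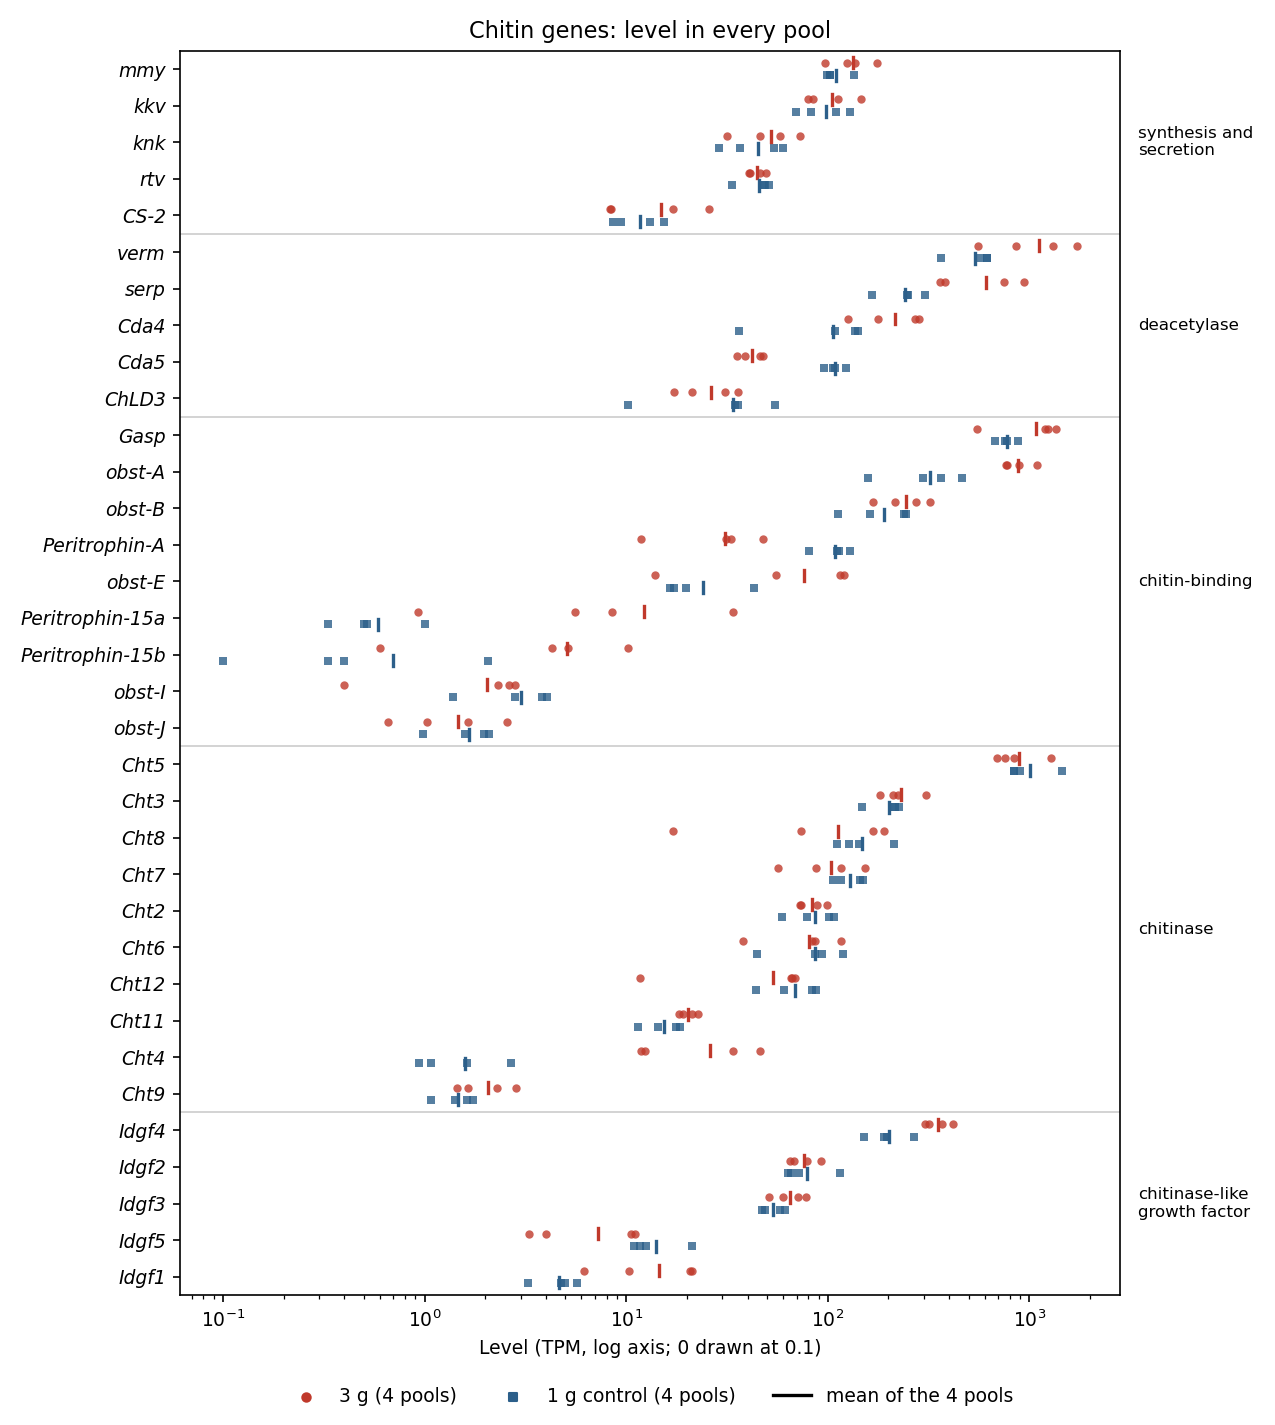
Level in TPM, on a log axis, of the 34 tested chitin genes in every pool, with 3 g pools as circles drawn above the 1 g control pools as squares; short bars are the means of 4 pools, and a value of 0 is drawn at 0.1. The circles lie clear of the squares for Cht4, obst-A, Idgf4, Idgf1, serp, Cda5 and Peritrophin-A, and the groups overlap for the other 27 genes.

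The genes that make and organise chitin did not separate the groups. None of the 5 passed the threshold (limma; unadjusted p under 0.05 for 0), and their changes lay between -0.02 and 0.26. The gene kkv encodes the chitin synthase of epidermis and tracheae. Its level was 79.8, 146, 112 and 84.2 TPM in 3 g pools 1 to 4, against 129, 82.8, 109.6 and 69.8 TPM in control pools 1 to 4. High and low pools occurred in both groups, and the change was 0.10 with a 95% interval of -0.49 to 0.70. The gene mmy encodes the pyrophosphorylase that makes UDP-N-acetylglucosamine, the substrate of the synthases. It stood at 137, 124, 175 and 97.1 TPM in 3 g pools, against 102, 99.5, 135 and 102 TPM in control pools, and its groups overlapped (change 0.26, 95% interval -0.19 to 0.71). The second synthase gene, CS-2, which acts in the gut, spanned 8.32 to 25.7 TPM in 3 g pools and 8.62 to 15.4 TPM in control pools. The genes knk and rtv encode membrane proteins needed to order newly made chitin. For knk the range was 31.5 to 73.0 TPM in 3 g pools and 28.8 to 60.1 TPM in control pools, and for rtv 40.7 to 49.5 TPM in 3 g pools and 33.6 to 51.3 TPM in control pools. The 95% interval of rtv, -0.39 to 0.35, was the narrowest of the 5. Those of knk, -0.53 to 0.94, and CS-2, -0.67 to 1.10, were the widest and leave room for larger changes. In the Ensembl annotation 64.0% of the exon bases of knk overlap an antisense RNA, and without strand their reads cannot be told apart.

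Of the 5 tested deacetylase genes, Cda5 fell and 0 passed as higher (limma; unadjusted p under 0.05 for 3 higher and 1 lower). The means of serp, verm and Cda4 at 3 g were 2.52, 2.06 and 2.03 times those of controls, without passing the threshold. These enzymes remove acetyl groups from chitin and alter the packing of its fibres. Cda5 read 39.0, 47.8, 46.0 and 35.6 TPM in 3 g pools, against 95.6, 106, 109 and 124 TPM in control pools. Every 3 g pool was below every control pool, and the spread within each group was small, with a coefficient of variation of 13.8% at 3 g and 10.7% in controls. The change was -1.36 ± 0.14 (SE, adjusted p = 0.00241), the lowest adjusted p among the chitin genes. It passed with any 1 of the 8 pools left out, at adjusted p from 0.00329 to 0.0155.

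The secreted deacetylases encoded by serp and verm act together in tracheal cuticle, where they limit tube length, and the genes lie beside each other. Levels of serp were 745, 945, 361 and 382 TPM in 3 g pools, against 250.3, 248, 303 and 165 TPM in control pools. The 3 g pools were all above the controls, but pools 1 and 2 stood well above pools 3 and 4, and the change of 1.24 ± 0.35 (SE) did not pass (adjusted p = 0.101). Levels of verm were 1306, 1723, 556 and 857 TPM in 3 g pools, against 616, 567, 613 and 363 TPM in control pools. Pool 3 at 3 g lay among the controls, and the change was 0.95 ± 0.35 (SE, adjusted p = 0.222). Cda4 stood at 282, 272, 179 and 126 TPM in 3 g pools, against 108, 141, 137 and 36.3 TPM in control pools. Pools 1 and 2 at 3 g were again the highest, pool 4 at 3 g lay within the control range, and control pool 4 was far below the rest (change 1.12 ± 0.47, SE, adjusted p = 0.288). ChLD3 ranged from 17.3 to 35.8 TPM in 3 g pools and from 10.2 to 55.0 TPM in control pools, with control pool 4 the lowest. Exons of ChLD3 overlap those of LSm7 on the other strand over 13.1% of their length.

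Chitin-binding genes had 1 member higher, obst-A, and 1 lower, Peritrophin-A, out of 9 tested. The obstructor proteins and Gasp bind chitin in the cuticle and the tracheal lining, and peritrophins are a family with the same kind of chitin-binding domain. Levels of obst-A were 1091, 892, 775 and 766 TPM in 3 g pools, against 298, 365, 466 and 158 TPM in control pools. Each 3 g pool exceeded the highest control pool, and the mean was 881 ± 151 TPM at 3 g and 322 ± 129 TPM in controls (SD, n = 4 each). The change was 1.54 ± 0.32 (SE, adjusted p = 0.0365). It kept its direction without any 1 pool, at 1.24 to 1.76, but did not pass without control pool 1 or 2 or without any 1 of the 3 g pools, at adjusted p from 0.0683 to 0.0928. With pool 2 at 3 g and control pool 4 both left out, the adjusted p of obst-A was 0.0551.

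Peritrophin-A, the next gene along the chromosome, showed the reverse pattern. It read 33.2, 31.4, 11.9 and 47.5 TPM in 3 g pools, against 81.2, 111, 113 and 129.5 TPM in control pools. All 3 g pools were below all control pools, and pool 3 at 3 g was the lowest of the 8. The change was -1.93 ± 0.39 (SE, adjusted p = 0.0357), and -2.19 to -1.53 with 1 pool left out. The threshold was missed when any 1 control pool, or pool 1 or 2 at 3 g, was left out, at adjusted p from 0.0507 to 0.115, and likewise after median-of-ratios rescaling of the libraries (adjusted p = 0.0522) or with pool 2 at 3 g and control pool 4 both left out (adjusted p = 0.151).

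Gasp was among the most abundant chitin genes in both groups. It stood at 1197, 1243, 1352 and 548 TPM in 3 g pools, against 760.4, 774, 880.4 and 672 TPM in control pools. Pools 1 to 3 at 3 g exceeded every control and pool 4 at 3 g was below every control. The change was 0.42 ± 0.28 (SE, adjusted p = 0.598), and without pool 4 at 3 g it was 0.72 (adjusted p = 0.0314). Gasp passed in only that 1 of the 8 fits with 1 pool left out, with adjusted p up to 0.865 in the others. Levels of obst-B overlapped, at 216, 273, 323 and 168 TPM in 3 g pools, against 243, 162, 240.2 and 113 TPM in control pools. For obst-E the split resembled that of Gasp. It read 115, 55.1, 121 and 14.0 TPM in 3 g pools, against 17.2, 16.6, 19.8 and 43.1 TPM in control pools, so that pool 4 at 3 g was the lowest of all 8 and control pool 4 the highest of the controls (change 1.35 ± 0.68, SE, adjusted p = 0.405). The low members obst-I and obst-J stayed between 0.40 and 2.81 TPM in 3 g pools and between 0.98 and 4.03 TPM in control pools, and 95.9% of the exon bases of obst-I overlap an antisense RNA.

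The small peritrophin genes Peritrophin-15a and Peritrophin-15b, whose products are named for the peritrophic matrix of the gut, were uneven at 3 g. Peritrophin-15a stood at 0.93, 5.58, 34.0 and 8.53 TPM in 3 g pools, against 0.33, 0.52, 1.00 and 0.50 TPM in control pools. Pools 2 to 4 at 3 g were above all controls and pool 1 at 3 g was within their range. The change was 2.76 ± 0.84 (SE, adjusted p = 0.131), and 3.54 without pool 1 at 3 g (adjusted p = 0.0304). Peritrophin-15a passed in only that 1 of the 8 fits with 1 pool left out, with adjusted p up to 0.296 in the others. Peritrophin-15b stood at 0.60, 5.17, 4.29 and 10.2 TPM in 3 g pools, against 0.33, 2.06, 0 and 0.40 TPM in control pools (change 2.10 ± 0.75, SE, adjusted p = 0.201). All of its exon bases (100.0%) overlap an antisense RNA, and its level and that of Peritrophin-15a are uncertain, since reads of related neighbours can be split between them. Markers of the midgut, 10 genes that include trypsins, amylases and the regulator lab, had 0 of 4 tested members past the threshold (limma; unadjusted p under 0.05 for 2 higher and 0 lower). They summed to 5.69, 11.1, 79.0 and 19.6 TPM in 3 g pools, against 3.93, 4.92, 6.44 and 9.40 TPM in control pools, with none at 0 in all pools of a group. Pool 3 at 3 g was highest both for that sum and for Peritrophin-15a, and pool 1 at 3 g was lowest among 3 g pools for both. A single gene, the protease gene Jon65Aiii, made up 62.3 of the 79.0 TPM in pool 3 at 3 g, and it averaged 19.9 ± 28.6 TPM at 3 g and 0.460 ± 0.479 TPM in controls (SD, n = 4 each). For deltaTry, 3 g pools held 0.22 to 8.1 TPM and control pools 0.06 to 0.13 TPM (change 2.02, limma, adjusted p = 0.223). Jon99Ci, too low to be tested, held 0.22 to 0.87 TPM in 3 g pools and 0 to 0.19 TPM in control pools. The change was -0.97 for lambdaTry and -0.09 for lab, and Amy-d averaged 0.145 TPM at 3 g and 0.360 TPM in controls. The part of gut tissue in these levels was not tested.

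**Figure D2:**
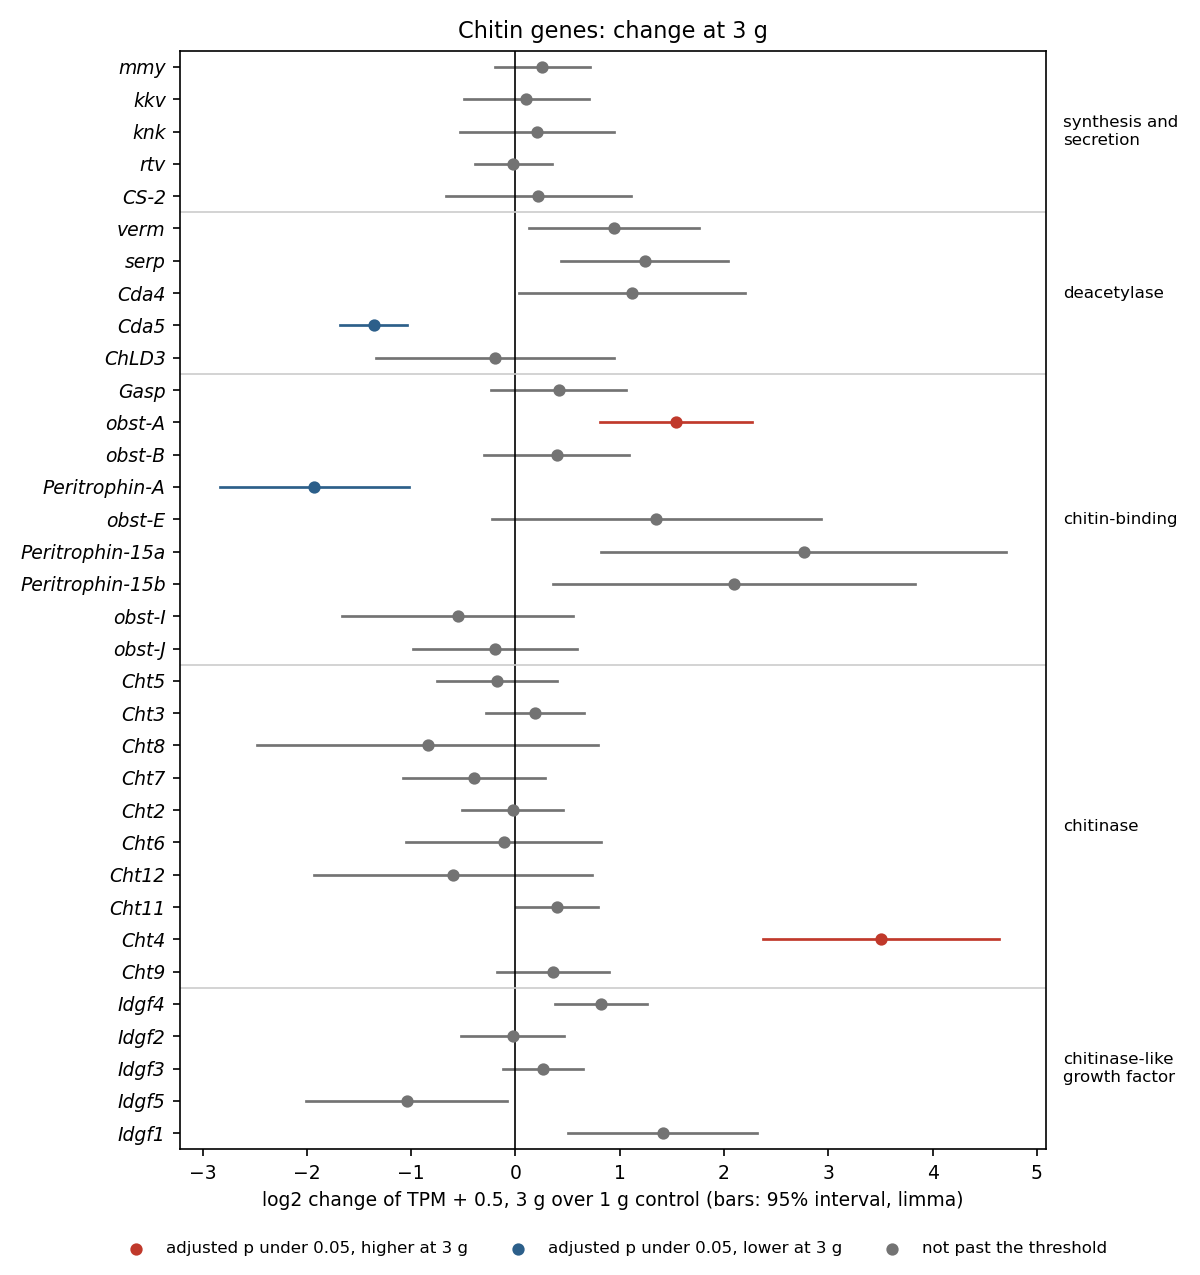
Change of each tested chitin gene, as log2(TPM + 0.5) at 3 g minus control, with its 95% interval from limma, grouped by role. Cht4 (3.51) and obst-A (1.54) are marked as higher, and Cda5 (-1.36) and Peritrophin-A (-1.93) as lower. The changes of the 5 genes of synthesis and secretion lie near 0, with CS-2 having the widest interval of these (-0.67 to 1.10).

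Among the 10 chitinase genes, Cht4 rose and the other 9 did not pass (limma; unadjusted p under 0.05 for 2 higher and 0 lower). Cht4 read 12.4, 34.1, 11.9 and 46.3 TPM in 3 g pools, against 1.08, 1.63, 2.67 and 0.94 TPM in control pools. The lowest 3 g pool was more than 4 times the highest control pool, and pools 2 and 4 at 3 g stood above pools 1 and 3. The mean was 26.1 ± 16.9 TPM at 3 g and 1.58 ± 0.785 TPM in controls (SD, n = 4 each), with a change of 3.51 ± 0.49 (SE, adjusted p = 0.00976). With any 1 pool left out the adjusted p was 0.0120 to 0.0438, and with pool 2 at 3 g and control pool 4 both left out it was 0.0572.

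Cht5, a chitinase of the moulting fluid, was the most abundant chitin gene in controls. It stood at 760.4, 688, 1286 and 835 TPM in 3 g pools, against 1456, 841, 841 and 901 TPM in control pools. A single pool stood above the rest in each group, pool 3 at 3 g and pool 1 of the controls, and the change was -0.18 with a 95% interval of -0.76 to 0.40. Cht3, the gene now called Cht10, stood at 308, 211, 181 and 224 TPM in 3 g pools, against 226, 216, 217 and 147 TPM in control pools, and the groups overlapped (change 0.19, 95% interval -0.28 to 0.66). Cht7 stood at 56.4, 152, 117 and 87.5 TPM in 3 g pools, against 150.4, 116, 144 and 106 TPM in control pools (change -0.40, 95% interval -1.08 to 0.29). Among chitinase genes, Cht8 varied most between 3 g pools. It read 73.7, 191, 167 and 17.1 TPM in 3 g pools, against 142, 127, 213 and 111 TPM in control pools, so that pools 1 and 4 at 3 g were below every control and pools 2 and 3 were within their range (change -0.84 ± 0.71, SE, adjusted p = 0.679).

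The remaining chitinase genes overlapped between groups. Cht12 had 69.1, 11.7, 65.9 and 66.5 TPM in 3 g pools and 44.0 to 87.0 TPM in control pools, so pool 2 at 3 g alone was low. Cht2 ranged from 72.9 to 98.9 TPM in 3 g pools and 59.5 to 107 TPM in control pools, and Cht6 from 37.8 to 116 TPM in 3 g pools and 44.8 to 119 TPM in control pools. Cht11 ranged from 18.2 to 22.7 TPM in 3 g pools and 11.5 to 18.4 TPM in control pools (change 0.40 ± 0.17, SE, adjusted p = 0.300). Cht9 ranged from 1.44 to 2.85 TPM in 3 g pools and 1.08 to 1.73 TPM in control pools, and 76.9% of its exon bases overlap an antisense RNA.

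The Idgf genes encode secreted proteins of the chitinase family that lack chitinase activity and were named for promoting growth of imaginal disc cells in culture. None of the 5 passed (limma; unadjusted p under 0.05 for 2 higher and 1 lower). Idgf4 stood at 317, 368, 418 and 303 TPM in 3 g pools, against 189, 151, 198 and 268 TPM in control pools. The groups did not overlap, and the change of 0.82 ± 0.19 (SE) missed the threshold (adjusted p = 0.0568). It passed without control pool 4, the highest control (0.97, adjusted p = 0.0275), and with sample weights in the fit (adjusted p = 0.0119). With any other single pool left out Idgf4 did not pass, at adjusted p up to 0.1495. Idgf1 stood at 6.16, 20.8, 21.2 and 10.3 TPM in 3 g pools, against 4.96, 3.27, 5.67 and 4.73 TPM in control pools. The groups did not overlap, but pool 1 at 3 g lay close to the highest control (change 1.41 ± 0.39, SE, adjusted p = 0.0984). Without that pool the change was 1.75 (adjusted p = 0.0338). With any other single pool left out Idgf1 did not pass, at adjusted p up to 0.271.

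Idgf5 differed the other way, at 4.02, 11.1, 3.29 and 10.6 TPM in 3 g pools, against 12.5, 11.0, 11.8 and 21.3 TPM in control pools. Pools 1 and 3 at 3 g were well below the controls and pools 2 and 4 were at their lower edge (change -1.05 ± 0.42, SE, adjusted p = 0.260). Idgf2 ranged from 65.0 to 92.3 TPM in 3 g pools and 63.8 to 115 TPM in control pools, and Idgf3 from 51.1 to 78.0 TPM in 3 g pools and 47.1 to 61.2 TPM in control pools. Fat body and hemocytes are known sources of these proteins. Fat body markers had 2 of 7 members called higher, Fbp1 and Lsp1gamma, where 2.23% of all tested genes were. They summed to 6596 to 19210 TPM in 3 g pools and 2114 to 4171 TPM in control pools. Of that sum, Fbp1 alone held 1153 to 9086 TPM in 3 g pools and 61.1 to 146 TPM in control pools. All 7 changes were above 0, but the groups overlapped for 5 of these markers. The smallest change was 0.43, for Rfabg, at 739 TPM at 3 g and 569 TPM in controls. Hemocyte markers had 1 of 7 called lower, PPO2, where 2.06% of all tested genes were. PPO2 was low, at 0.75 to 1.18 TPM in 3 g pools and 1.85 to 3.13 TPM in control pools. Of the 7 changes, 6 were below 0 and 1 above, that of NimC1 (0.58, limma, adjusted p = 0.260). For srp the change was -0.07. The sums of the hemocyte markers were 89.0 to 132 TPM in 3 g pools and 123 to 149 TPM in control pools, mostly from Pxn and srp. No marker of either list was at 0 in all pools of a group, and the part of these cells in the Idgf levels was not tested.

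Several chitin genes lie beside each other, and 8 such pairs were compared by their ratio. The ratio of obst-A to Peritrophin-A, taken within each library, was 32.8, 28.4, 65.4 and 16.1 in 3 g pools, against 3.67, 3.28, 4.10 and 1.22 in control pools. The log2 ratio differed by 3.47. That all 3 g ratios were above all control ratios was fixed by the groups of each gene not overlapping, in opposite directions. The permutation p of this pair was therefore fixed too, and the difference is given as a description only. The pair still counts among the 8 over which p was adjusted, which lowered the adjusted p of the pairs named next. Since the ratios were compared after their values were seen, the p-values of all pairs are given as description only. The groups did not overlap either for Cht4 over Cht9 (difference 3.15), Cht12 over Cht4 (difference -4.11) and Idgf1 over Idgf2 (difference 1.44), in each of which 1 gene had itself separated the groups. Their exact two-sided permutation p was 0.0286, the smallest that 4 against 4 pools can give, and 0.0571 adjusted over the 8 pairs, so that no pair could be called. The ratio of verm to serp was by contrast narrow, at 1.75, 1.82, 1.54 and 2.24 in 3 g pools and 2.46, 2.29, 2.03 and 2.20 in control pools, with an exact permutation p of 0.0857 (adjusted 0.137). The difference of the other 3 pairs, Cht8 against Cht12, Idgf2 against Idgf3 and Peritrophin-15b against Peritrophin-15a, was between -0.67 and -0.24, with exact permutation p from 0.200 to 0.771.

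**Figure D3:**
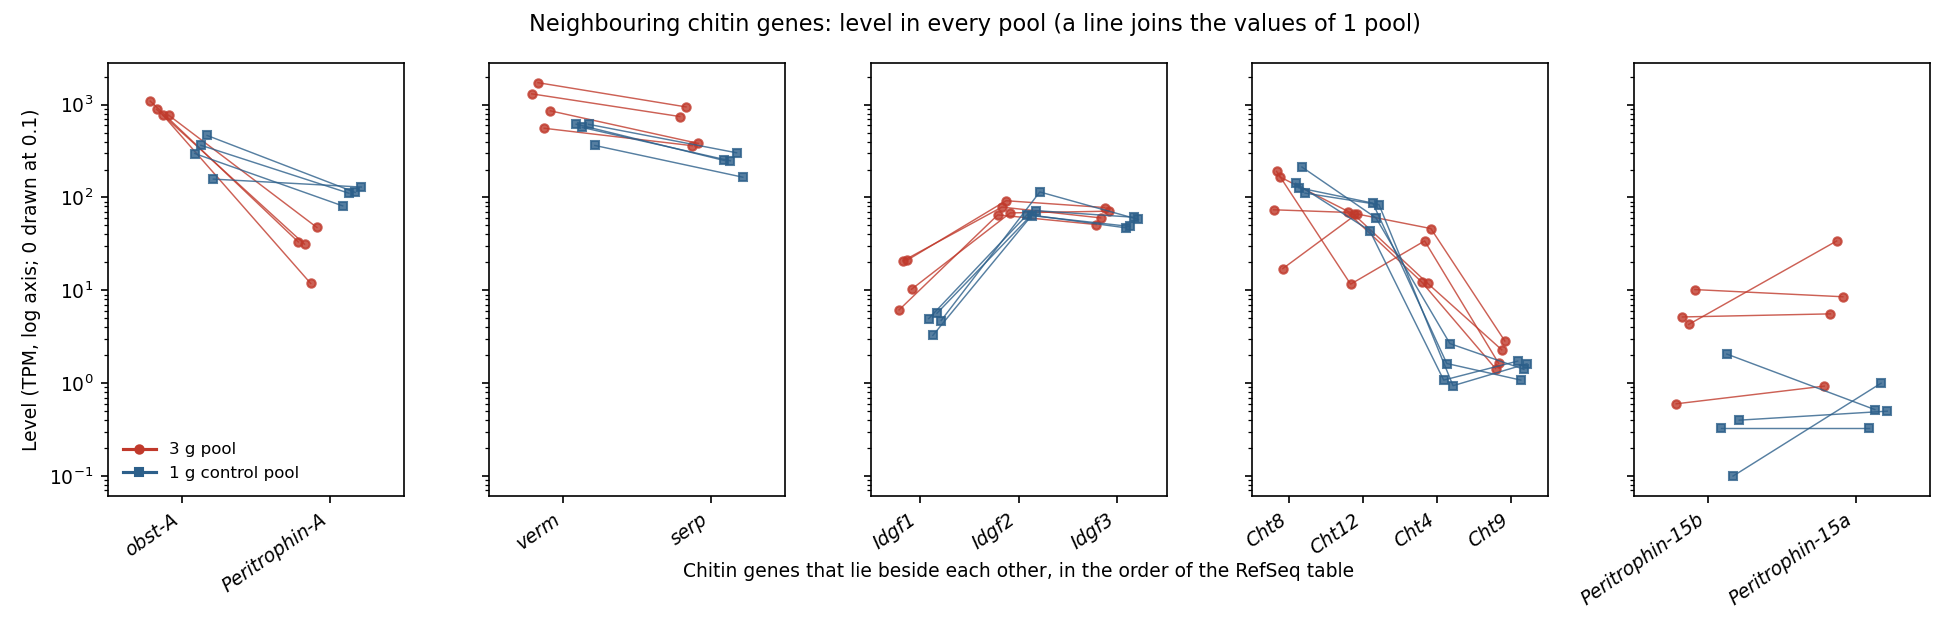
Level in TPM, on a log axis, of chitin genes that lie beside each other, with 1 line per pool, circles for 3 g pools and squares for 1 g control pools, and a value of 0 drawn at 0.1. The lines from obst-A to Peritrophin-A fall more steeply in 3 g pools (ratios 16.1 to 65.4) than in control pools (1.22 to 4.10), and those from verm to serp run nearly parallel.

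Summed over the 38 genes, chitin transcripts took 7260, 8005, 6841 and 5140 TPM in 3 g pools, against 5466, 4662, 5331 and 3999 TPM in control pools. Pool 4 at 3 g lay below control pools 1 and 3, so that the groups overlapped. The 5 most abundant genes, Cht5, Gasp, verm, obst-A and serp, held 63.3% to 70.2% of that sum in 3 g pools and 56.5% to 61.8% in control pools. By mean level the order of the first 4 was verm, Gasp, Cht5 and obst-A at 3 g, and Cht5, Gasp, verm and obst-A in controls. At 3 g the means of verm and Gasp, 1111 ± 512 and 1085 ± 364 TPM (SD, n = 4), differed by less than their spread. Chitinase genes made up 20.1%, 18.9%, 29.7% and 27.5% of the chitin sum in 3 g pools, against 41.4%, 33.7%, 31.8% and 36.7% in control pools. Their own sum was 1411 to 2035 TPM in 3 g pools and 1468 to 2261 TPM in control pools. The sum of chitin-binding genes was 1567 to 2657 TPM in 3 g pools and 1122 to 1725 TPM in control pools, and that of deacetylase genes 1160.0 to 3024 TPM in 3 g pools and 699 to 1197 TPM in control pools. These shares and sums were given no test, and a larger share for 1 role lowers those of the others.

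Pools within a group did not deviate evenly. Of the 34 tested genes, control pool 4 was the lowest control for 18 and the highest for 7, while control pool 3 was the lowest for 1. The median deviation of control pool 4 from the mean over all pools was -0.44 on the log2 scale, against -0.14 to 0.42 in 3 g pools and -0.22 to 0.07 in control pools 1 to 3. Control pool 4 was also the pool with the highest sum of muscle markers. Among 3 g pools, pool 2 was the highest for 13 genes and pool 4 the lowest for 12. The median coefficient of variation of the 34 genes was 34.5% at 3 g and 28.5% in controls, beside 20.2% at 3 g and 18.7% in controls for all tested genes, and it was larger at 3 g for 24 of them. The genes verm, serp and Cda4 were highest in pools 1 and 2 among 3 g pools, and Gasp, obst-E, Cht8 and Cht6 had their lowest value in pool 4. Tracheal markers (trh, btl, Osi6, Osi7 and Osi19) had 0 of 5 members past the threshold (limma; unadjusted p under 0.05 for 2 higher and 0 lower) and summed to 3062, 5472, 1602 and 4467 TPM in 3 g pools, against 2353, 475, 646.5 and 854.5 TPM in control pools. Nearly all of the tracheal sum was from the Osi genes. The tracheal regulator trh averaged 12.2 ± 0.801 TPM at 3 g and 10.7 ± 1.96 TPM in controls, and the receptor gene btl 6.94 ± 1.38 TPM at 3 g and 5.89 ± 0.326 TPM in controls (SD, n = 4 each). Osi19 averaged 137 ± 96.7 TPM at 3 g and 192 ± 383 TPM in controls, where control pool 4 alone held 766 TPM. Epidermal markers had 0 of 3 past the threshold (limma; unadjusted p under 0.05 for 1 higher and 0 lower) and summed to 80.3 to 416 TPM in 3 g pools and 68.1 to 149.5 TPM in control pools. Of the epidermal sum, ple alone held 342 TPM in pool 4 at 3 g. The mean of ple was 133 ± 156 TPM at 3 g and 9.47 ± 10.2 TPM in controls (SD, n = 4 each). Ddc averaged 8.87 ± 1.47 TPM at 3 g and 28.1 ± 38.5 TPM in controls. For grh the means were 67.3 ± 11.8 TPM at 3 g and 57.9 ± 14.9 TPM in controls. The part of the tracheal and epidermal markers in these patterns was not tested.

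**Figure D4:**
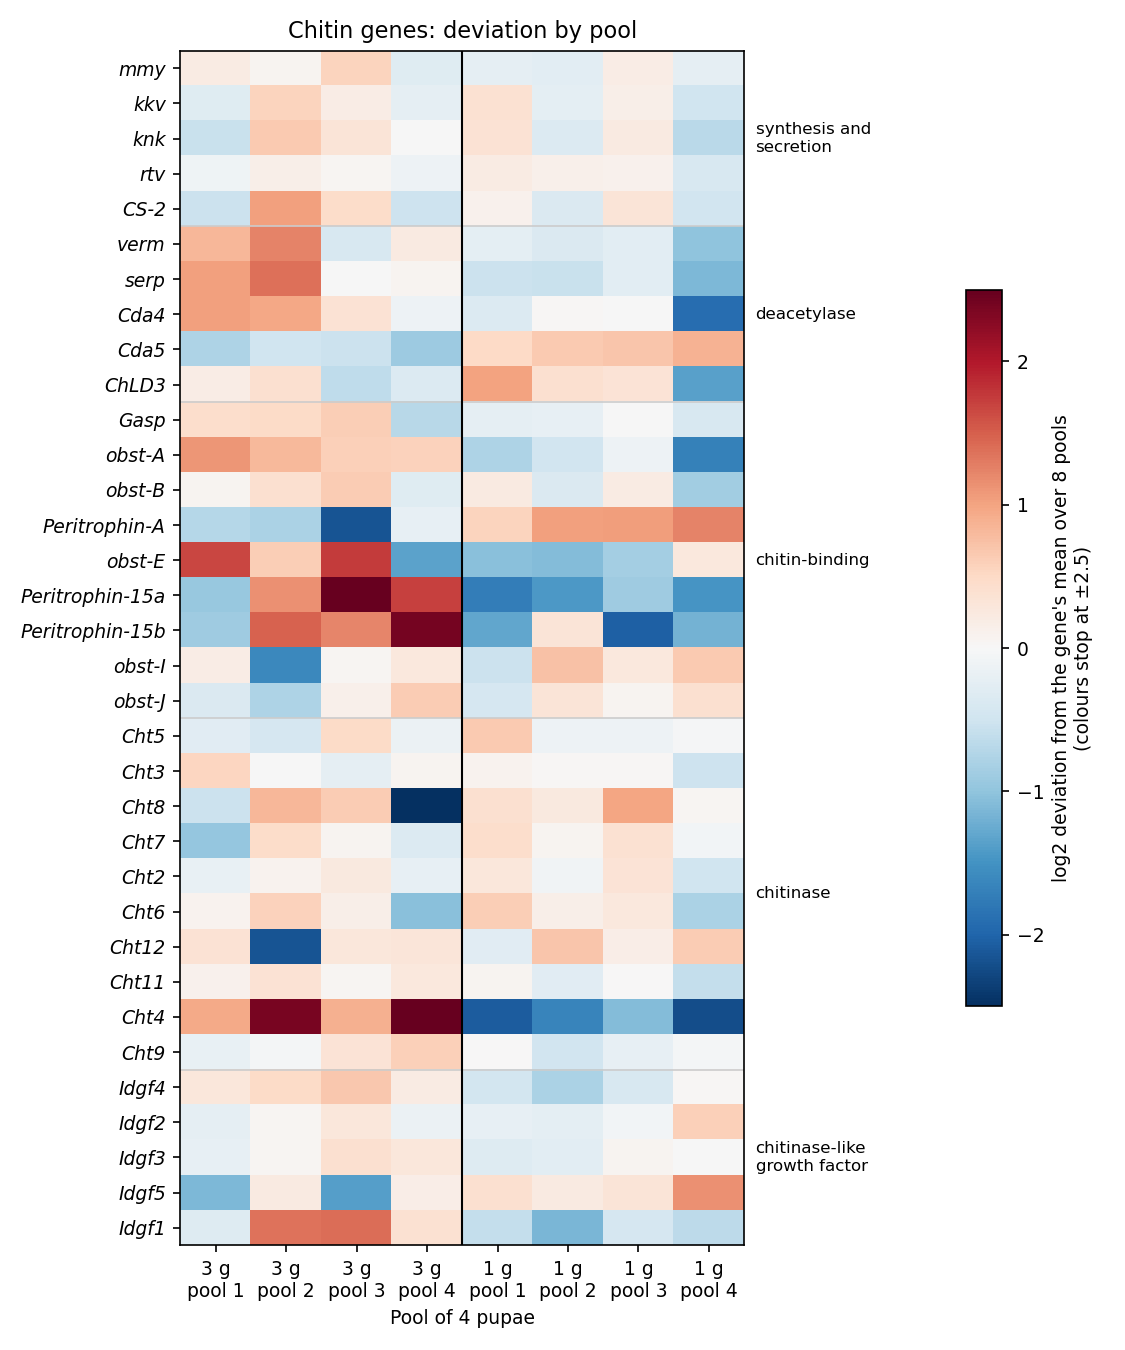
Deviation of each tested chitin gene in each pool from its own mean over the 8 pools, in log2 units of TPM + 0.5 and with colours that stop at ±2.5, with 3 g pools left of the line and 1 g control pools right of it. Control pool 4 is pale to dark blue for most genes (median -0.44), and verm, serp and Cda4 are darkest red in pools 1 and 2 at 3 g.

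Among other genes of the chitin pathway, 1 passed the threshold. Of 33 such genes, chosen by symbol from enzymes of UDP-N-acetylglucosamine supply, factors of chitin export, regulators, enzymes of oligomer breakdown and mucin-type proteins, 26 were tested. Muc11A passed as higher, and 0 genes as lower (limma; unadjusted p under 0.05 for 5 higher and 1 lower), with a median change of 0.20. For comparison, 4.28% of all tested genes passed, and 8.58% were higher and 7.68% lower before adjustment, so that 1 of 26 is near the share over all genes. Muc11A, a mucin-type gene, stood at 3.34, 6.29, 2.50 and 7.07 TPM in 3 g pools, against 0.45, 0.27, 0.99 and 0.20 TPM in control pools. The groups did not overlap (change 2.40 ± 0.38, SE, adjusted p = 0.0150), but it did not pass without control pool 2 (adjusted p = 0.0618) or with pool 2 at 3 g and control pool 4 both left out (adjusted p = 0.0806). It was not tested at a minimum mean of 5 TPM. In substrate supply, the nearest to the threshold were CG1969 (Gnpnat), an acetyltransferase of the hexosamine pathway, at 73.5 ± 17.2 TPM at 3 g and 45.8 ± 10.8 TPM in controls (SD, n = 4 each, adjusted p = 0.183), and Gfat2, which starts that pathway, at 45.3 ± 4.15 TPM at 3 g and 37.0 ± 3.84 TPM in controls (SD, n = 4 each, adjusted p = 0.299).

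Tequila, named after its values were seen, was nearest to the threshold among the other chitin pathway genes that did not pass. Its level was 47.3, 55.8, 45.7 and 54.8 TPM in 3 g pools, against 39.3, 30.3, 37.2 and 29.1 TPM in control pools, so that all 3 g pools were higher (change 0.58 ± 0.14, SE, adjusted p = 0.0647).

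The chitin export gene CG13188 (exp), needed for chitin deposition in tracheae, was lower in every 3 g pool, at 40.7 to 58.3 TPM in 3 g pools and 58.8 to 72.6 TPM in control pools (change -0.41 ± 0.14, SE, adjusted p = 0.170). The gene drd, needed for a normal peritrophic matrix, ranged from 3.70 to 17.5 TPM in 3 g pools and 11.5 to 29.1 TPM in control pools. Of the transcription factor genes, Blimp-1 averaged 35.9 ± 18.8 TPM at 3 g and 21.7 ± 12.8 TPM in controls, and grh, a regulator of cuticle genes, 67.3 ± 11.8 TPM at 3 g and 57.9 ± 14.9 TPM in controls (SD, n = 4 each). For the enzymes that deal with chitin oligomers, CG6218 (Nagk) averaged 43.3 ± 10.8 TPM at 3 g and 54.2 ± 4.89 TPM in controls, and Hexo1 103 ± 9.27 TPM at 3 g and 91.1 ± 13.9 TPM in controls (SD, n = 4 each). CG5210 (Idgf6), a further member of the Idgf family, stood at 66.5, 62.3, 56.7 and 59.6 TPM in 3 g pools, against 75.8, 68.9, 71.5 and 193 TPM in control pools. All 3 g pools were lower, but the highest of them, at 66.5 TPM, was close to the lowest control, at 68.9 TPM. Control pool 4 widened the difference of the means. The change of -0.59 ± 0.32 (SE) did not pass (adjusted p = 0.459), and it was -0.73 to -0.23 with 1 pool left out.

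**Figure D5:**
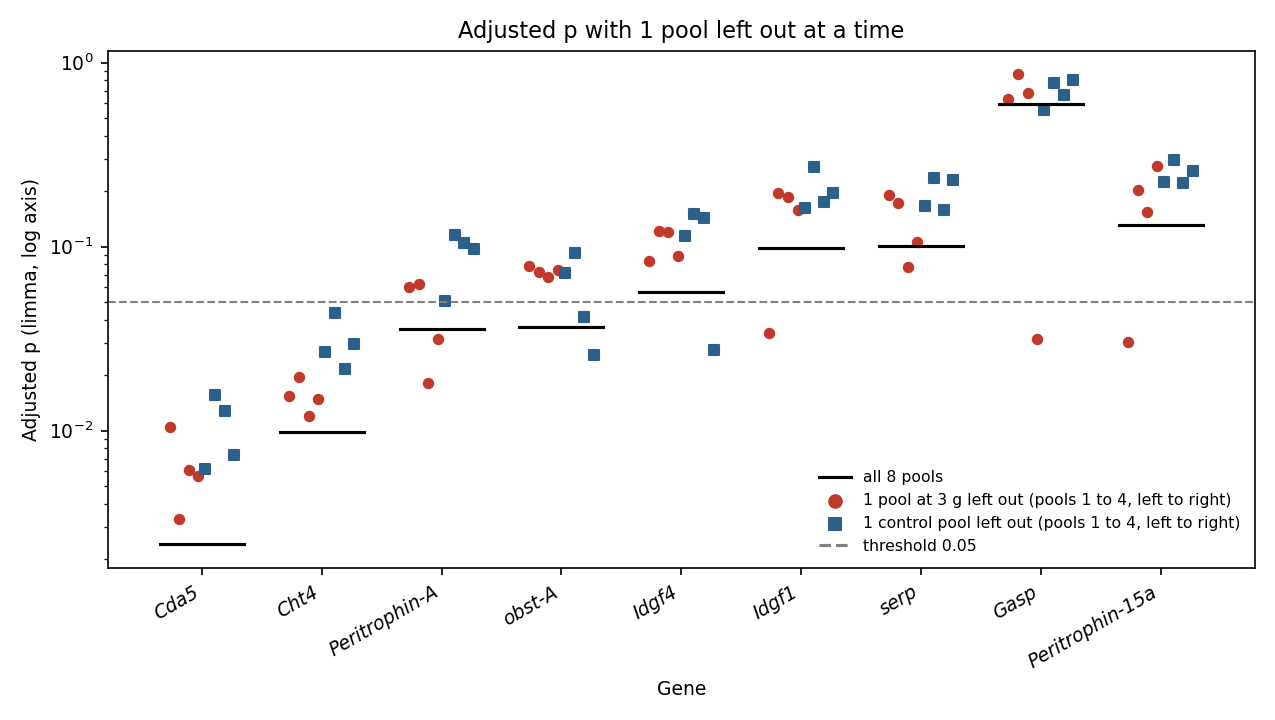
Adjusted p from limma, on a log axis, of 9 chitin genes with all 8 pools (bar), with 1 pool at 3 g left out (circles, pools 1 to 4 from left to right) and with 1 control pool left out (squares, pools 1 to 4 from left to right); the dashed line is the threshold of 0.05. Cda5 (0.00329 to 0.0155) and Cht4 (0.0120 to 0.0438) stay below the line with any 1 pool left out, while Peritrophin-A and obst-A cross it.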

How the data were processed

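Per the labels' protocols, RNA of 8 pools was sequenced on a HiSeq-2000, with all libraries in 1 lane and 100 bp read from both ends. Per the submitters' processing notes, the tools named, with no role or order, were eXpress 1.5.1, Bowtie2 2.1.0, Trimmomatic 0.30, DESeq and CASAVA. Not given in the sources used here are the build, the annotation, strand use and how the authors made the table. The deposited values are whole numbers, treated as a score and read as TPM multiplied by 100, since each library sums to 1000000 after division by 100. No library's depth can be had from them.

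Genes that averaged 1 TPM or more were compared on log2(TPM + 0.5) by limma (version 3.58.1, under R 4.3.3). The fit had a trend on intensity, no covariate and Benjamini-Hochberg adjustment. On simulated data the procedure called 26 of 50 genes changed 2-fold and 49 of 50 changed 16-fold. Of its 170 calls there, 15 were of unchanged genes. The simulated pools varied independently for each gene and equally in both groups, unlike the real pools, so these counts need not hold for them. The permutation p of the neighbouring gene ratios came from scipy 1.17.1. Gene order came from RefSeq (Release 6), where 36 member names were current symbols and 2 were synonyms, and exon overlap from Ensembl release 115. No position is printed, as the build of the values is unknown. Figures used matplotlib 3.10.9.

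Members, lists and tests were chosen with earlier results of these data known, and the neighbour ratios after their values were seen. Members past the threshold, with groups that did not overlap, or with a mean of at least 100 TPM are given pool by pool, and the rest by range, with obst-E, Cht12, Idgf5 and the Peritrophin-15 genes added after their values were seen. Of other chitin pathway genes, up to 4 past the threshold, or else the 2 with the smallest adjusted p, are named for each step. All 33 were matched, as were the markers, except Ect.

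Alternatives were pseudocounts of 0.1 and 1 TPM, a minimum mean of 5 TPM or none, no trend, sample weights, quantile normalization, a replicate block, median-of-ratios rescaling, and each pool left out in turn.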

Additional observations from a re-analysis of the deposited data

Results flagged for a closer look

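For each chitin gene and group, the highest or lowest of the 4 pools was compared with the other 3 by Dixon's gap ratio. Chance marks about 1 in 20 such sets, and among the 34 tested genes 8 of 68 sets were marked, 1 at 3 g and 7 among controls, of which 5 concerned control pool 4. Among genes not tested, Cda9, obst-F and obst-G had a marked control set, those of obst-F and obst-G because 3 of the 4 values are 0, which fixes the ratio.

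At 3 g, pool 2 read 11.7 TPM for Cht12, against 65.9 to 69.1 TPM in the other 3 pools. In controls, pool 4 was high for obst-E (43.1 TPM, others 16.6 to 19.8 TPM), Idgf2 (115 TPM, others 63.8 to 72.3 TPM), Idgf5 (21.3 TPM, others 11.0 to 12.5 TPM) and obst-G (0.13 TPM, others listed at 0). The same pool was low for Cht3 (147 TPM, others 216 to 226 TPM) and rtv (33.6 TPM, others 48.3 to 51.3 TPM). Control pool 1 was high for Cht5 (1456 TPM, others 841 to 901 TPM), and control pool 3 for mmy (135 TPM, others 99.5 to 102 TPM) and obst-F (0.06 TPM, others listed at 0). Control pool 2 was low for Cda9 (0.26 TPM, others 0.46 to 0.48 TPM). Control pool 4 held 10650 TPM of muscle markers, against 2893 to 5081 TPM in the other controls, and the part of this in its chitin values was not tested.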

How the results depend on the processing

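Of the 34 tested chitin genes, 15 kept their sign and their side of the threshold under every alternative run, and 22 kept their sign. Genes past the threshold numbered 908 with sample weights, 147 with the replicate number as a block, 225 with pool 2 at 3 g and control pool 4 both left out (chosen once the data had been seen), and 167 to 480 with 1 pool left out, beside 516. Chitin genes higher numbered 0 with the block (limma, 9 at an unadjusted p under 0.05), 0 with both pools left out (6) and 1 to 3 with 1 pool left out, beside 2. Those lower numbered 1 with the block, with both pools left out and after median-of-ratios rescaling, and 1 to 2 with 1 pool left out, beside 2. Other pathway genes higher numbered 0 with a minimum of 5 TPM, with the block and with both pools left out (limma, 4, 3 and 3 at an unadjusted p under 0.05) and 0 to 1 with 1 pool left out, beside 1. With sample weights 1 was lower, CG13188.

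Replicate numbers showed no sign of pairing the pools. Deviations of same-numbered pools correlated at -0.38, -0.52, 0.06 and 0.08. No pool at 3 g correlated best with the control pool of its own number. With the block, Cht4 (adjusted p = 0.0848), obst-A (adjusted p = 0.119), Peritrophin-A (adjusted p = 0.125) and Muc11A (adjusted p = 0.139) did not pass. Signs turned for genes not past the threshold. With 1 pool left out the changes were -0.43 to 0.0303 for obst-J, -0.37 to 0.0095 for Cht5, -0.20 to 0.083 for Cht2, -0.40 to 0.21 for Cht6, -0.82 to 0.0179 for Cht12, -0.12 to 0.17 for Idgf2, -0.68 to 0.11 for ChLD3, -0.0663 to 0.25 for kkv, -0.16 to 0.04 for rtv and -0.0909 to 0.43 for CS-2. Likewise the log2 ratio difference was -1.28 to 0.69 for Cht8 over Cht12 and -1.16 to 0.0238 for Peritrophin-15b over Peritrophin-15a. With sample weights they were 0.078 for Cht5, 0.084 for Idgf2, -0.14 for kkv, -0.16 for knk and -0.23 for CS-2. With both pools left out they were 0.0172 for obst-I, 0.13 for obst-J, 0.13 for Cht12, 0.14 for Idgf2, -0.21 for kkv, -0.17 for knk and -0.22 for CS-2. The cause was not tested.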
